A study of Homo sapiens with 6 samples.

Results

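The genes described here are the long intergenic non-coding RNA genes that carry a name made of LINC and a number, in SH-SY5Y cells treated with methamphetamine (METH) or phosphate-buffered saline (PBS). They were picked by name alone, from a deposited table of 4101 genes that the authors had marked as changed by METH, and 47 of the 4101 met the rule. SH-SY5Y is an established human neuroblastoma line, labelled wild type, that is widely used as a model of catecholamine neurons. One group of 3 libraries came from cultures given 2 mM METH for 24 h, and the other group of 3 libraries came from cultures given PBS. The labels also give the time as Day 0 in both groups. Nothing in the labels ties the libraries of a group to separate experiments, so the p-values measure the spread between these libraries, which may be partly technical. LINC genes that are not among the 4101 were not analysed here, so the 47 are a selection of genes that differed between the groups.

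Long intergenic non-coding RNAs are transcripts of RNA polymerase II that lie between protein-coding genes and hold no long reading frame. Many are spliced and polyadenylated like messenger RNA, but most are present at a low level, in few cell types, and are turned over in the nucleus. Some act on the transcription of a gene beside them, some host small RNAs or circular RNAs, and for many with only a number for a name no role is known. Several numbered genes have since been renamed after a role was described: LINC01105 is SILC1 in RefSeq, an RNA of neurons that acts on its neighbour SOX11, and LINC01158 is PANTR1, an RNA transcribed next to the brain transcription factor gene POU3F3.

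Expression is given in CPM, the reads of a gene per 1 M reads of its library, which do not correct for gene length. The libraries held between 85.7 and 110.8 M reads by the step of their values, and the 47 genes together received 24130 to 29873 reads per library. The number of reads on a single LINC gene ran from 2 to 4335, and the genes below 1 CPM rest on few reads. Before any result, the distance between libraries is given, because it was not the same for all. Over the 4101 genes, METH 1 and METH 2 were the closest pair, with a median absolute difference of 0.20 on the log2 scale. PBS 11 differed from METH 3 by a median of 0.52, less than the 0.54 between PBS 10 and PBS 11. Over the 47 LINC genes the same medians were 0.59 and 0.56, so PBS 11 stood about as near to a METH library as to PBS 10. The numbers of LINC genes that rose or fell are therefore also given with 1 library left out; the other counts below were not all computed again in that way.

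Promoter sequences are shown for 6 genes on which the description turns. LINC00473 and LINC00602 have starts that lie opposite each other. LINC00957, LINC00242 and LINC01224 are 3 of the 6 LINC genes that passed the strictest adjustment used, and LINC01105 is shown as well. The sequences are from RefSeq on GRCh38.p14, from 250 bases before to 50 bases after the annotated start, written 5′ to 3′ on the gene's strand. Capitals mark TGACG on either strand, which is the core of the cAMP response element, and the AP-1 motif TGANTCA. The windows are chr6:165987990-165988289 on the minus strand for LINC00473, chr6:165987301-165987600 on the plus strand for LINC00602, and chr7:44038799-44039098 on the plus strand for LINC00957. The other 3 are chr6:169798776-169799075 on the minus strand for LINC00242, chr19:23416025-23416324 on the minus strand for LINC01224, and chr2:5932437-5932736 on the plus strand for LINC01105.
LINC00473: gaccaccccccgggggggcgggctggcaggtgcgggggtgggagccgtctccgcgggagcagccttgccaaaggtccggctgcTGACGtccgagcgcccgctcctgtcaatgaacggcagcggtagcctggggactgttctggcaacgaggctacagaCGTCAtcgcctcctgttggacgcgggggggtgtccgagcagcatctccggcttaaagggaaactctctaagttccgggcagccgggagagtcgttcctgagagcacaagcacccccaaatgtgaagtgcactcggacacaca
LINC00602: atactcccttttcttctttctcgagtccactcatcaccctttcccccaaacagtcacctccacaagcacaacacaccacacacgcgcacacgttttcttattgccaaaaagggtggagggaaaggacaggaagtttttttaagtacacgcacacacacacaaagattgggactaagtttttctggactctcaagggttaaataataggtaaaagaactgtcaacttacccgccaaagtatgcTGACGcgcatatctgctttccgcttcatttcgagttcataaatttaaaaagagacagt
LINC00957: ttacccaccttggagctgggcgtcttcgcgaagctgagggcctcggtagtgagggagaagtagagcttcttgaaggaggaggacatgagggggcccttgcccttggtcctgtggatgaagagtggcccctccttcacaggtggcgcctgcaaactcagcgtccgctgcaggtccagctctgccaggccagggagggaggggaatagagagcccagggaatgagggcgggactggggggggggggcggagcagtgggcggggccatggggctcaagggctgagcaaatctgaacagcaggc
LINC00242: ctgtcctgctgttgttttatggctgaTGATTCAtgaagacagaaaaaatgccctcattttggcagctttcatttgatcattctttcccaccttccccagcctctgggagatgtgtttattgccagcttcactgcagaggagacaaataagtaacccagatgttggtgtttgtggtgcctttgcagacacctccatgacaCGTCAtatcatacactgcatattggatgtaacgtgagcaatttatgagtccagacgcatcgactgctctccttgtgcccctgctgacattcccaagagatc
LINC01224: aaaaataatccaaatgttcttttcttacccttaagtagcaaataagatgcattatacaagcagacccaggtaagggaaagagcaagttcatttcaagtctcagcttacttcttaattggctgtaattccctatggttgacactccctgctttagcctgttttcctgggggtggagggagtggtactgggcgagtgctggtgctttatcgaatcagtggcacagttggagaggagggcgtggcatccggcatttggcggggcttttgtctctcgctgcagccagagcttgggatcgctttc
LINC01105 (SILC1): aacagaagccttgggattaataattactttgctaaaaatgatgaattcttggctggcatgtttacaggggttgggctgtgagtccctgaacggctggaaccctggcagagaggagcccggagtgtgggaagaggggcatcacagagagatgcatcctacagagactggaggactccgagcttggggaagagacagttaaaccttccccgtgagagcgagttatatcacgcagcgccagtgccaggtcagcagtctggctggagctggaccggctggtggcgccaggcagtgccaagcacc

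The promoter of LINC00473 held TGACG at 2 places and those of LINC00602 and LINC00242 at 1 place each. LINC00242 also held 1 AP-1 motif, and the windows of LINC00957, LINC01224 and LINC01105 held neither motif. The window of LINC01852, which also passed the strictest adjustment and is not shown, held neither. A promoter entry was used for 31 of the 47 genes, the first listed where a gene had several. Any LINC entry on chromosome 8, where LINC00599 lies, was left out. TGACG on either strand was in 12 of the 31 (38.7%), against 24.6% of all 35116 promoter windows of the same length. The 35116 count every listed window, also where a gene has several, so the 2 shares differ in unit. Those 12 were 6 of the 12 promoters of genes that rose, 4 of the 11 of genes that fell, and 2 of the 8 of genes that did not pass the test. The full element TGACGTCA, which contains TGACG, was in 1 of the 31 (3.23%), that of LINC00265, which fell but passed in 2 of 6 fits with 1 library left out, and in 1.85% of all windows. AP-1 motifs were in 2 (6.45% against 7.71%), the NR4A motif AAAGGTCA in 0 (0.0% against 1.22%), the E-box CACGTG in 2 (6.45% against 7.26%) and TATAAA in 3 (9.68% against 11.5%). The median share of G and C was 62.0% in the LINC promoters and 58.7% in all. A match is a string of letters, and binding was not measured.

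By limma on log2(CPM + 0.1), fitted to all 4101 genes, 13 of the 47 LINC genes rose with METH and 20 fell at a Benjamini-Hochberg adjusted p under 0.1, and 14 did not pass. Those 13 are 27.7% of the LINC genes, where 33.3% of the whole table was higher. The 20 are 42.6%, where 35.8% of the table was lower. Both shares lie near the background of a table that holds mostly changed genes. The CPM of the 3 METH libraries did not overlap that of the 3 PBS libraries in 31 LINC genes (66.0%), against 64.0% of the table, with 12 of the 31 above PBS and 19 below. The median log2 change was -0.62 over the 47 and 0.11 over the table, and the LINC genes ran from -1.67 to 1.62. Under the alternatives listed below, the LINC median lay between -0.66 (DESeq2) and -0.40 (on log2(CPM + 1)). The table median was 0.020 without PBS 12 and 0.29 over genes whose mean reached 1 CPM in either group.

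**Figure D1:**
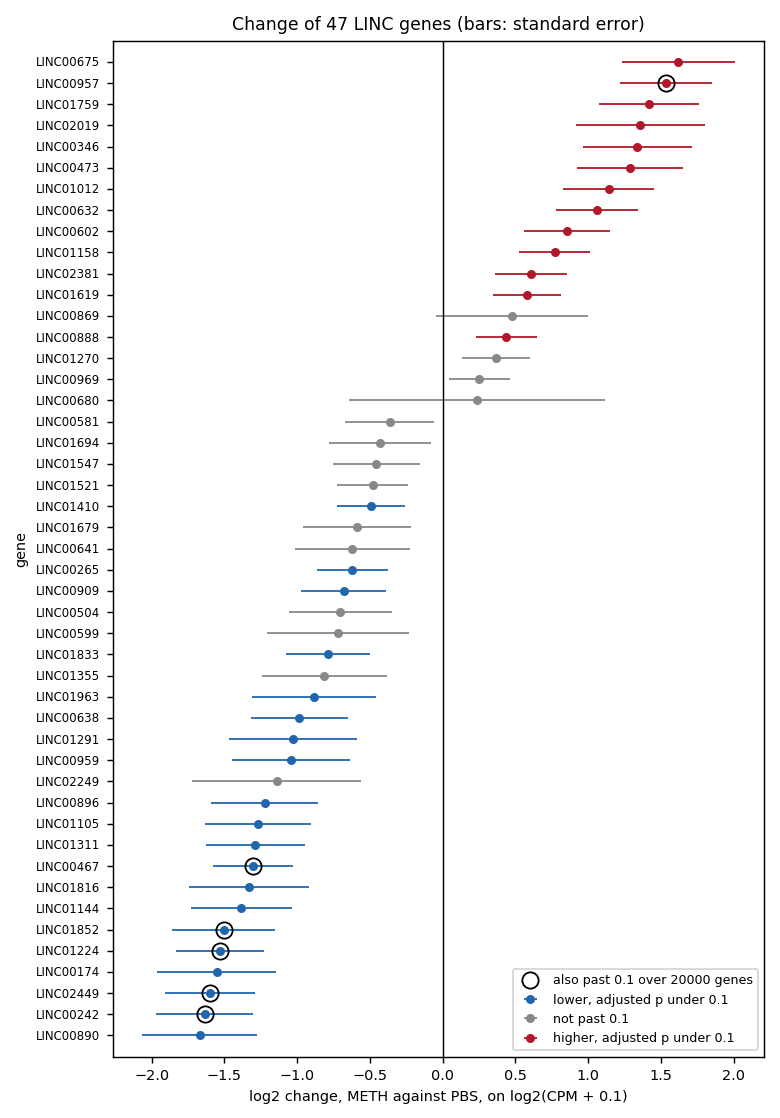
The log2 change of each of the 47 LINC genes (METH against PBS, on log2(CPM + 0.1)), with its standard error as a bar; colour gives the side of the adjusted p of 0.1. The genes run from LINC00890 at -1.67 to LINC00675 at 1.62, and the 6 circled genes, 1 higher and 5 lower, also passed when adjusted over 20000 genes.

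Because the table holds genes already marked as changed, an adjustment within it is lenient. When the adjustment was made over 20000 genes, counting those not in the table as unchanged, LINC00957 passed among the higher genes and LINC00242, LINC02449, LINC01224, LINC01852 and LINC00467 among the lower. That is 1 and 5 of 47, where 5.34% and 4.66% of the table passed. The counts also moved with single libraries. Without METH 2, 5 LINC genes were higher and 11 lower (10.6% and 23.4%), where 10.0% and 13.7% of the table were. Without METH 1 the split was 8 to 12 (17.0% and 25.5%, against 11.97% and 15.3% of the table). Leaving out PBS 12 gave 8 to 14 (17.0% and 29.8%, against 18.2% and 20.8%). Leaving out PBS 11, the library nearest to METH, gave 14 higher and 22 lower (29.8% and 46.8%, against 37.8% and 33.4%). The call held in each of the 6 fits with 1 library left out for 5 higher LINC genes (LINC00675, LINC00957, LINC01759, LINC00473 and LINC01012) and 10 lower ones. These are 10.6% and 21.3% of the 47, where the call held for 9.0% and 10.5% of the table. These shares are a description without a test.

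**Figure D2:**
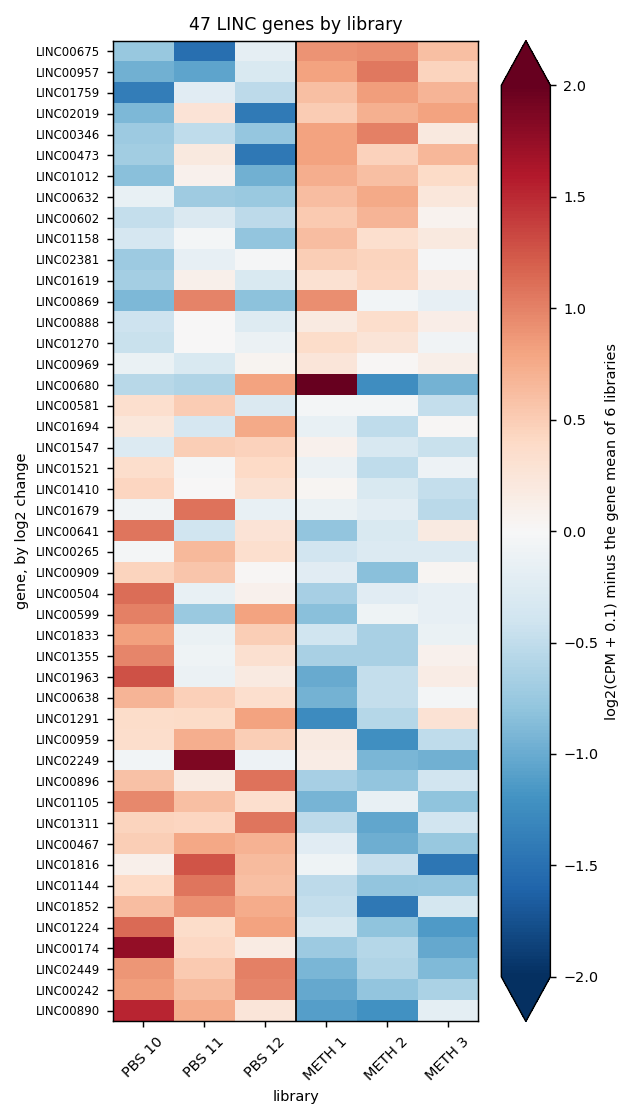
Each row is 1 of the 47 LINC genes and each column 1 library; colour is log2(CPM + 0.1) minus the mean of that gene over the 6 libraries. Rows are in the order of the log2 change, and the dark cell of LINC00680 in METH 1 stands for 44.8 CPM.

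LINC00473 is an RNA of primates known to be induced by cAMP through the factor CREB and its CRTC coactivators. Its level was 10.9, 20.2 and 6.53 CPM in PBS 10, 11 and 12, and 31.1, 24.5 and 28.1 CPM in METH 1, 2 and 3. All METH values were above all PBS values, and PBS 11 came closest to METH. It rose by 1.29 on the log2 scale (SE 0.36, limma adjusted p = 0.0304, n = 3 libraries per group). LINC00602, on the other strand, had 0.885, 1.03 and 0.848 CPM with PBS and 1.87, 2.10 and 1.34 CPM with METH, again with no overlap. Its log2 change was 0.86 (SE 0.30, limma adjusted p = 0.05001), and it passed in 3 of the 6 fits with 1 library left out. In RefSeq the 2 genes start 488 bases apart and are transcribed toward each other. The gene of the phosphodiesterase PDE10A, an enzyme that breaks down cyclic nucleotides, also rose here. It had 3.79, 3.13 and 1.73 CPM with PBS and 6.36, 4.87 and 6.04 CPM with METH, a log2 change of 1.03 (SE 0.32, limma adjusted p = 0.0388). GENCODE 29 has no gene LINC00473 under its identifier in the table, and its PDE10A starts 39 bases from the RefSeq start of LINC00473, which is 325 kb upstream of the nearest RefSeq start of PDE10A. LINC00473, LINC00602 and PDE10A can therefore share reads, and it is not stated whether strand was used in counting.

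LINC01759 is LNCTAM34A in RefSeq, an antisense RNA at the host gene of the tumour suppressor miRNA miR-34a, which is a target of p53. It measured 0.776, 1.85 and 1.49 CPM in the PBS libraries and 3.37, 3.99 and 3.57 CPM in the METH libraries. Every METH library was above every PBS library, and PBS 10 was the lowest. The log2 change was 1.42 (SE 0.34, limma adjusted p = 0.0212). Its neighbour H6PD, a hexose-6-phosphate dehydrogenase of the endoplasmic reticulum 38.5 kb away, moved the other way, with a log2 change of -0.54 (limma adjusted p = 0.0730).

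LINC01158 (PANTR1) had 20.2, 24.9 and 14.8 CPM with PBS and 39.2, 32.3 and 29.4 CPM with METH. The groups did not overlap, and the rise was 0.77 on the log2 scale (SE 0.24, limma adjusted p = 0.0388). It no longer passed without PBS 12 (adjusted p = 0.103 by limma), METH 1 (0.128) or METH 2 (0.109). LINC02381 lies in the HOXC region, and its level was 18.6, 27.3 and 30.2 CPM with PBS and 43.2, 41.8 and 30.2 CPM with METH. METH 3 fell just inside the PBS range, so the groups overlapped, and the log2 change was 0.61 (SE 0.25, limma adjusted p = 0.0721). Without PBS 10, METH 1 or METH 2 it did not pass (limma adjusted p of 0.158 to 0.196), and without PBS 10 the log2 change was 0.40. HOXC6, a homeobox gene 95.3 kb away, was higher with METH (log2 change 0.60, limma adjusted p = 0.0525), and CBX5, which encodes a heterochromatin protein and lies 88.4 kb away, was lower (-0.58, limma adjusted p = 0.0604).

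LINC00675 and LINC00957 had the highest log2 changes on the log2(CPM + 0.1) scale. That scale understates low genes such as LINC00346, which had 0.036, 0.058 and 0.032 CPM with PBS and 0.292, 0.352 and 0.159 CPM with METH (log2 change 1.34, limma adjusted p = 0.0296; 0.105 without METH 2), or 3 to 5 reads against 17 to 32. LINC00675 is annotated today as a protein-coding gene, TMEM238L, and held 0.397, 0.196 and 0.644 CPM with PBS and 1.46, 1.50 and 1.18 CPM with METH. The lowest METH library was well above the highest PBS library, and the log2 change was 1.62 (SE 0.39, limma adjusted p = 0.0210). PIRT, a regulator of TRP ion channels on the same strand 18.4 kb away, had 0.352, 0.322 and 0.419 CPM with PBS and 1.98, 2.26 and 1.94 CPM with METH. That is a rise of 2.22 on the log2 scale (SE 0.29, limma adjusted p = 0.00371), larger than that of LINC00675 itself. ADPRM, a protein-coding gene on the other strand 83.7 kb away, had a log2 change of 0.63 (limma adjusted p = 0.0903), which passed in 1 of the 6 fits with 1 library left out (log2 change 0.41 to 0.93). LINC00957 went from 1.04, 0.967 and 1.69 CPM with PBS to 3.74, 4.49 and 2.92 CPM with METH, with no overlap (log2 change 1.54, SE 0.32, limma adjusted p = 0.0137). It overlaps the pseudogene RASA4CP on the other strand over 642 exonic bases, and RASA4CP also rose (log2 change 0.83, limma adjusted p = 0.0737), so reads of the pair may be shared.

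Less is known of LINC02019 and LINC01012. LINC02019 had 0.289, 0.772 and 0.172 CPM with PBS and 0.934, 1.09 and 1.17 CPM with METH. Its groups did not overlap, although PBS 11 came close to METH 1, and the log2 change was 1.36 (SE 0.44, limma adjusted p = 0.0421). Without PBS 12 or METH 2 it did not pass (limma adjusted p = 0.114 and 0.110). LINC01012 had 2.94, 5.63 and 2.68 CPM with PBS and 8.84, 8.12 and 6.98 CPM with METH, with PBS 11 again nearest to METH and a log2 change of 1.14 (SE 0.31, limma adjusted p = 0.0289). PBS 11 was the PBS library nearest to METH in 9 of the 13 LINC genes that rose and in 8 of the 20 that fell.

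LINC00888 and LINC01619 were among the LINC genes with the most reads and rose by less. LINC00888 is SNHG33 in RefSeq, a host gene of small nucleolar RNA, with 10.8, 14.5 and 12.1 CPM in PBS and 16.2, 18.3 and 15.9 CPM in METH. The groups were apart by a small gap, and the log2 change of 0.44 (SE 0.21) passed narrowly (limma adjusted p = 0.0961). It was no longer past the threshold without PBS 10, PBS 12 or any 1 of the METH libraries, and neither by limma without a trend (adjusted p = 0.116) nor by DESeq2 (adjusted p = 0.111). LINC01619, whose exons share bases with the antiproliferative gene BTG1, had 22.1, 38.1 and 28.8 CPM in PBS and 43.8, 47.7 and 38.8 CPM in METH. METH 3 lay just above PBS 11, and the log2 change was 0.58 (SE 0.24, limma adjusted p = 0.0712), lost without PBS 10, PBS 12, METH 1 or METH 2 (limma adjusted p of 0.139 to 0.198), with a log2 change of 0.39 without PBS 10. Among the genes that rose, LINC00632, the host of the circular RNA CDR1as that is abundant in neurons, had a log2 change of 1.06 (limma adjusted p = 0.0269; 0.102 without METH 2), but its linear and circular forms were not told apart.

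**Figure D3:**
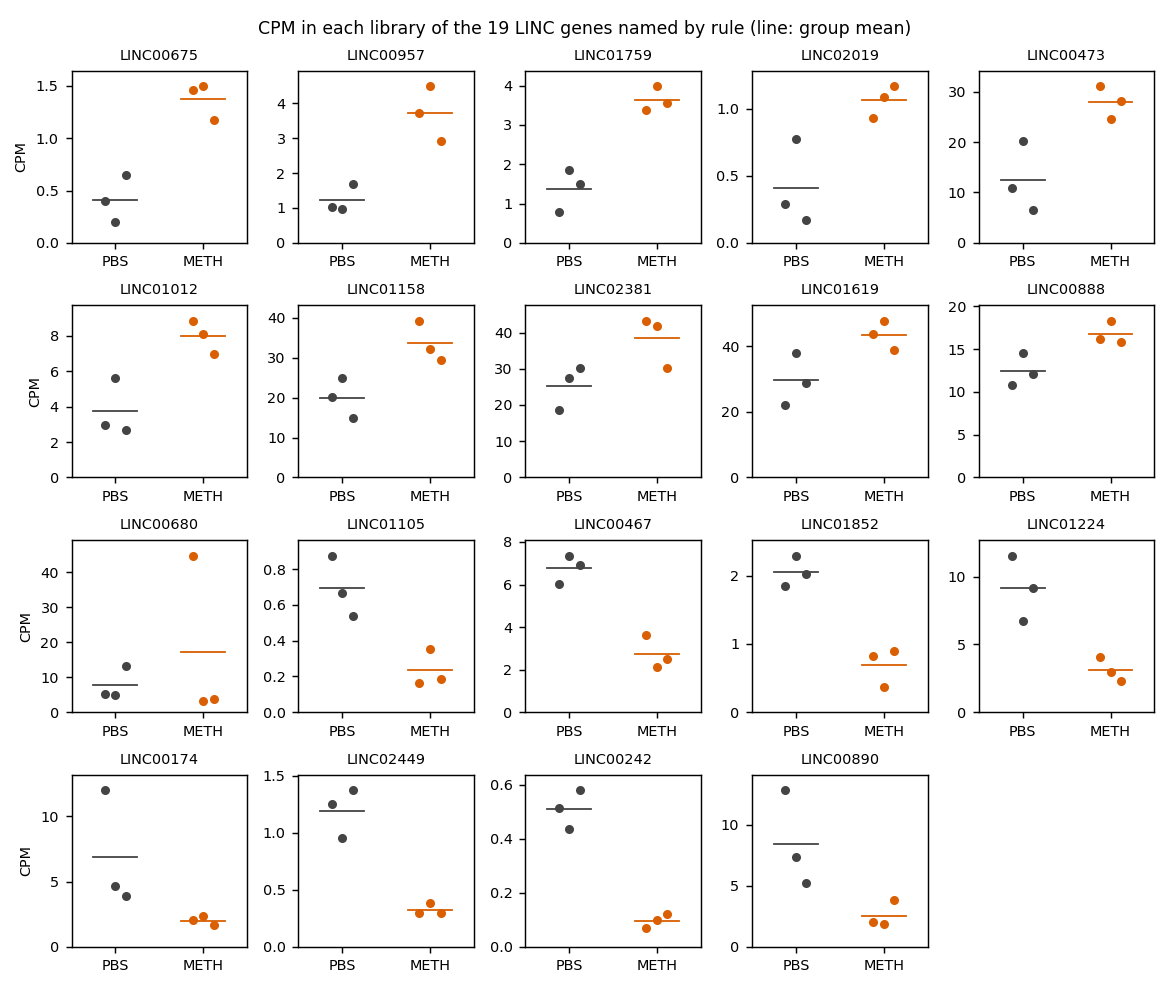
CPM in each of the 3 PBS and 3 METH libraries for the 19 LINC genes named by rule, on linear axes that start at 0, with a line at each group mean. In 17 panels the groups do not overlap, against 64.0% of the table, and for the genes named for the largest changes the choice required it; in LINC02381 they touch at 30.2 CPM, and in LINC00680 METH 1 alone reaches 44.8 CPM.

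LINC01105 (SILC1) was lower with METH. It had 0.876, 0.668 and 0.537 CPM with PBS, or 97, 58 and 50 reads, and 0.163, 0.352 and 0.187 CPM with METH, or 14, 32 and 20 reads. Each METH library was below each PBS library, and METH 2 was nearest to them. The gene fell by 1.27 on the log2 scale (SE 0.36, limma adjusted p = 0.0312). The adjusted p was 0.152 over 20000 genes and 0.101 without METH 1. The log2 change of LINC01105 was -0.46 on log2(CPM + 1) and -1.58 on log2(CPM + 0.01). An exact 2-sided permutation test of this gene gave p = 0.1, the smallest that 3 against 3 libraries can give.

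LINC00890 and LINC00242 had the lowest log2 changes on the log2(CPM + 0.1) scale, on which the change of genes with few reads is understated. LINC00890 is now the protein-coding gene SERTM2, and its level was 12.8, 7.35 and 5.19 CPM with PBS and 2.00, 1.83 and 3.81 CPM with METH. PBS 10 was far above the rest, yet the groups did not overlap, and the gene fell by 1.67 on the log2 scale (SE 0.40, limma adjusted p = 0.0206). LINC00242 had 0.515, 0.438 and 0.580 CPM with PBS and 0.070, 0.099 and 0.122 CPM with METH, which is 38 to 57 reads against 6 to 13. It fell by 1.64 (SE 0.33, limma adjusted p = 0.0134), and over 20000 genes the adjusted p was 0.0652. PHF10, a subunit of the SWI/SNF chromatin remodeller 63.2 kb away, was also lower (log2 change -0.58, limma adjusted p = 0.0806).

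LINC02449, LINC01224 and LINC01852 also fell. LINC02449 measured 1.26, 0.956 and 1.37 CPM with PBS and 0.292, 0.385 and 0.299 CPM with METH, a decrease with a log2 change of -1.60 (SE 0.31, limma adjusted p = 0.0121). For LINC01224 the values were 11.6, 6.74 and 9.13 CPM with PBS and 4.07, 2.93 and 2.31 CPM with METH, a log2 change of -1.53 (SE 0.30, limma adjusted p = 0.0124). LINC01852 had 1.85, 2.29 and 2.03 CPM with PBS and 0.817, 0.374 and 0.897 CPM with METH, a log2 change of -1.51 (SE 0.36, limma adjusted p = 0.0205). In each of the 3 genes the highest METH library was below the lowest PBS library. Their adjusted p over 20000 genes was 0.0591, 0.0603 and 0.0998.

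LINC00467, described in neuroblastoma cells as a transcript repressed by N-Myc, had 6.03, 7.36 and 6.94 CPM with PBS and 3.63, 2.11 and 2.48 CPM with METH. The groups were well apart, and it fell by 1.31 on the log2 scale (SE 0.27, limma adjusted p = 0.0150; 0.0731 over 20000 genes). MYCN itself was at 0.966, 1.49 and 1.21 CPM with PBS and 0.934, 0.440 and 1.88 CPM with METH, and did not pass (limma adjusted p = 0.495). RD3, a retinal gene 41.2 kb from LINC00467, was lower as well (log2 change -0.62, limma adjusted p = 0.0474). LINC00174 had 12.01, 4.67 and 3.91 CPM with PBS and 2.05, 2.32 and 1.65 CPM with METH. PBS 10 stood far above the other PBS libraries, and the log2 change was -1.55 (SE 0.41, limma adjusted p = 0.0266). The transcript GS1-124K5.4 begins 140 bases away on the other strand and moved upward, from 10.4, 16.3 and 15.9 CPM with PBS to 29.9, 31.5 and 23.4 CPM with METH. Its log2 change was 1.01 (SE 0.24, limma adjusted p = 0.0216), so neighbours a short distance apart changed in opposite directions. The pseudogene AC006001.3, 32.5 kb away on the same strand, did not pass (log2 change 0.61, limma adjusted p = 0.111). With 1 library left out it passed in 2 of the 6 fits, with log2 changes of 0.37 to 0.87.

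LINC00680, a transcribed pseudogene in GENCODE, did not pass. It had 5.10, 4.95 and 13.3 CPM with PBS and 44.8, 3.14 and 3.87 CPM with METH, so METH 1 alone carried the high mean. With all libraries the log2 change was 0.24 (SE 0.88, limma adjusted p = 0.799), and without METH 1 it was -0.98. This gene also moved the summed level of the LINC genes. The sum over all 47 was 269.3, 289.3 and 259.1 CPM with PBS and 348.7, 285.4 and 264.8 CPM with METH. Without LINC00680 it was 264.2, 284.3 and 245.8 CPM against 303.9, 282.2 and 260.9 CPM, and the groups overlapped. The sum hides opposite parts, since the 13 genes that rose summed to 92.4 to 137.8 CPM with PBS and 164.1 to 199.9 CPM with METH, and the 20 that fell to 86.5 to 108.5 CPM and 40.8 to 48.9 CPM. Those partial sums follow from how the genes were split and carry no test.

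Levels of different genes are compared per kb of exonic sequence in GENCODE 29. In the PBS libraries the median over the 46 annotated LINC genes was 1.05 CPM per kb, and the range ran from 0.00670 CPM per kb in LINC00346 to 23.7 CPM per kb in LINC01158. LINC02381 had 10.99 and LINC01619 8.14 CPM per kb, while LINC01105, with 8200 exonic bases, had 0.0846 CPM per kb. The signs were also counted by level in CPM, with no test. Of the LINC genes with a mean under 1 CPM over all libraries, 10 of 13 had a log2 change below 0, as had 12 of 17 between 1 and 5 CPM and 8 of 17 at 5 CPM or more. Protein-coding genes of the table were below 0 in 54.2% of 308, 59.5% of 838 and 41.0% of 2415 genes at the same levels.

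The annotation of these genes is mixed. GENCODE 29 (GRCh38) types 33 of the 47 as lincRNA, 5 as processed transcripts, 3 as transcribed pseudogenes, 2 as antisense and 3 as protein-coding, and 1, LINC00473, was not found in it. The 3 protein-coding ones are LINC00675, LINC00890 and LINC00959, and they are protein-coding in RefSeq too. RefSeq gives 12 of the 47 another symbol, among them MIR124-1HG for LINC00599, the host of a miRNA of neurons, whose log2 change of -0.72 did not pass (limma adjusted p = 0.192). Its log2 change was -0.39 without PBS 10, and -1.27 without PBS 11, the single fit with 1 library left out in which it passed. The 46 annotated genes lie on 20 chromosomes, most on chromosome 2 with 6 genes. Exonic length ran from 662 to 28876 bases, with a median of 3131. A single exon block makes up 10 genes, and 36 have more blocks. Another gene overlaps 27 of them and 17 share exonic bases with one, so their reads may come from either.

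The genes of the table were also grouped by the form of their name, as a description without a test. Below 0 were 63.8% of the 47 LINC genes, 72.3% of the 83 with antisense names, 69.0% of the 335 named by a clone, and 47.1% of the 3636 others. The median log2 change was -0.62, -0.77, -0.80 and 0.35 in that order. By GENCODE type, 117 genes typed lincRNA have no LINC name, and 99 of them were below 0, with a median of -0.89. The 33 LINC genes of that type were below 0 in 24 cases, with a median of -0.68. Their levels differ, with a median CPM of 4.14 in the LINC genes, 1.65 in the clone-named and 10.8 in the others.

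**Figure D4:**
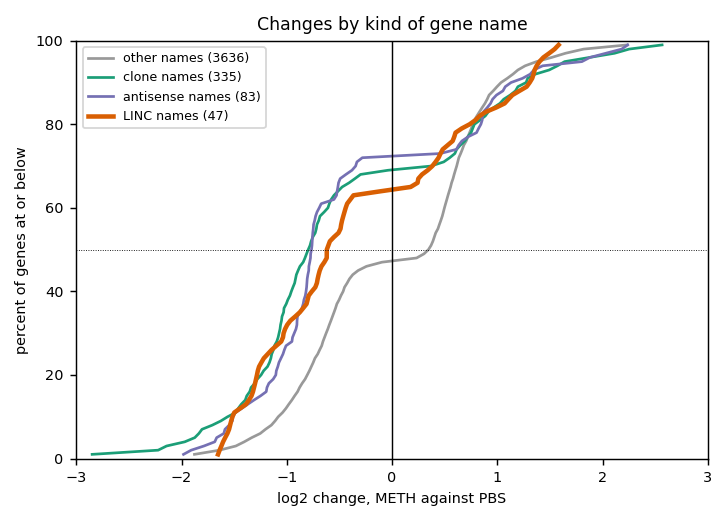
Cumulative share of genes (percent, vertical) at or below each log2 change (horizontal) for LINC, antisense, clone and other names, drawn from percentiles 1 to 99. The LINC curve crosses 50% at -0.62 and the curve of other names at 0.35; few genes lie near 0, as the table holds genes marked as changed.

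Genes of the table within 100 kb were found for 22 LINC genes, in 40 pairs. Positions are those of GENCODE 29, so LINC00473, which is not in it, and its pair with LINC00602 are not counted. LINC gene and neighbour had the same sign of log2 change in 27 pairs (67.5%), against 1456 of the 2401 pairs of all table genes at that distance (60.6%). The LINC genes below 0 shared the sign in 16 of 21 pairs and those above 0 in 11 of 19. LINC00957 alone accounts for 9 pairs, and without it 21 of 31 had the same sign. Around LINC00957, RASA4CP, POLR2J4, AC004951.4 and the DNA polymerase gene POLM rose, DBNL and AC004951.1 fell, and PGAM2, AEBP1 and POLD2 did not pass. Pairs that overlap, 2 among the LINC genes and 277 in the table, had the same sign in 2 and in 187. One opposite pair is LINC00959 and EBF3, a neuronal transcription factor gene 56.2 kb away, with log2 changes of -1.04 and 1.53. With 1 library left out the call of LINC00959 held in 3 of 6 fits, with log2 changes of -1.39 to -0.68 and a limma adjusted p of up to 0.200. LINC02449 and the lincRNA AC092111.2, 14.3 kb apart on 1 strand, both fell. Of the named neighbours that passed, PIRT, GS1-124K5.4, AC004951.4 and EBF3 kept their call in each of the 6 fits with 1 library left out, PDE10A in 5 and the others in 4 or fewer. The log2 change of POLM ran from 0.42 to 1.21 over those fits and that of DBNL from -0.93 to -0.44.

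**Figure D5:**
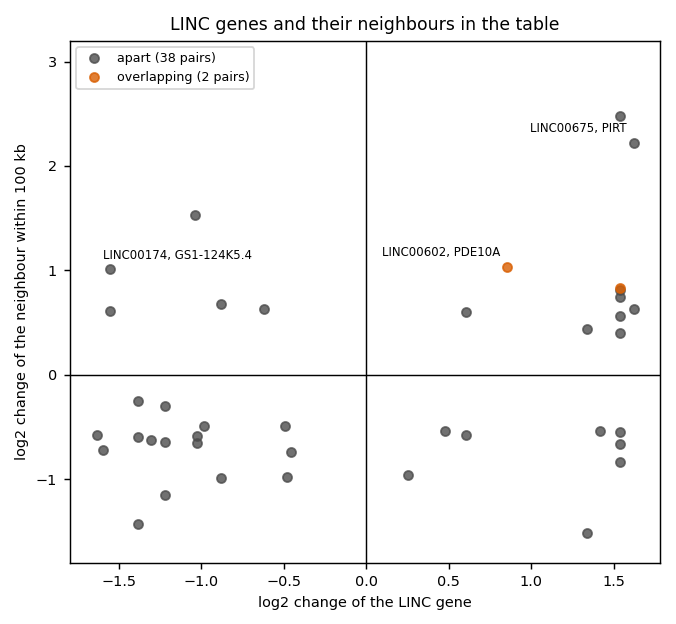
Each point is 1 of 40 pairs of a LINC gene (horizontal, log2 change with METH) and a gene of the table within 100 kb (vertical, log2 change); pairs that overlap are in orange. Of the points, 27 lie where both signs agree, and the pair LINC00675 and PIRT lies at 1.62 and 2.22.

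Other long non-coding RNAs with established names give a comparison. Of a list of 50 names, 13 were in the table under the listed name, of which 7 fell and 1 rose, with a median log2 change of -0.61. PANTR1 is also on the list, but the table holds it as LINC01158, which rose, and it is not among the 13. Of all 4101 genes 35.8% fell and 33.3% rose, and the same background holds for the lists that follow. With 1 library left out, MIR17HG, DLEU2 and SNHG1 kept their call in each of the 6 fits, and the other 5 of the 13 that passed in 2 fits each. The 5 that did not pass, ZFAS1, SNHG3, SNHG5, SNHG6 and SNHG17, had log2 changes from 0.38 to 0.61. SNHG3 had 8.67, 3.34 and 6.90 CPM with PBS and 3.40, 3.40 and 39.3 CPM with METH, so METH 3 alone carried its high mean. The 13 summed to 961.4, 1633 and 973.4 CPM with PBS and 1757, 1490 and 1397 CPM with METH, so the groups overlapped. SNHG5 had the highest CPM of the 13, without a correction for gene length. MIR17HG, the host of the miR-17-92 cluster, had 0.542, 0.921 and 0.344 CPM with PBS and 0.023, 0.022 and 0.122 CPM with METH (log2 change -2.15, limma adjusted p = 0.0134). SNHG1, a host of small nucleolar RNA, had 73.5, 79.2 and 40.5 CPM with PBS and 25.6, 21.7 and 32.5 CPM with METH (log2 change -1.23, limma adjusted p = 0.0201). DLEU2, DLX6-AS1, SNHG14, TUG1 and CRNDE were the others that fell. TP53TG1, a p53 target, rose from 19.9, 31.8 and 23.2 CPM to 42.5, 38.7 and 32.9 CPM (log2 change 0.63, limma adjusted p = 0.0567).

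Non-coding transcripts are trimmed and degraded by the nuclear exosome, and many are ended by the Integrator complex. These lists count names, and a few genes are in them under both an older and a newer name. Of 23 names of exosome genes and cofactors 3 were in the table. EXOSC6 fell (log2 change -0.56, limma adjusted p = 0.0609), C1D rose (0.48, limma adjusted p = 0.0856) and ZCCHC8 did not pass. Integrator had 4 of 15 names in the table, and INTS3 and INTS9 fell (-0.75 and -0.61, limma adjusted p = 0.0245 and 0.0463). INTS10 and INTS14 did not pass. Of 10 decay genes 4 were in the table, and UPF1 and SMG6 fell (-0.89 and -0.64, limma adjusted p = 0.0207 and 0.0443), while UPF3B and SMG5 did not pass. With 1 library left out, UPF1 kept its call in each of the 6 fits, INTS3 in 5 and the others in 3 or fewer. Their part in the levels of the LINC genes was not tested.

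Markers of the cell type were read in the same table, where an unchanged gene is not listed. Of 14 sympathoadrenal markers 5 were in it. GATA2, which had the highest CPM of them with PBS, without a correction for gene length, had 401.4, 415.1 and 506.5 CPM with PBS and 264.2, 279.8 and 266.6 CPM with METH. With METH the highest CPM was that of CHGB, at 409.0, 463.6 and 504.8 CPM, against 242.4, 266.4 and 220.03 CPM with PBS. GATA2, RET and ELAVL4 fell, CHGB rose and MYCN did not pass. The calls of RET and CHGB held in each of the 6 fits with 1 library left out, and those of GATA2 and ELAVL4 in 4. The 5 summed to 859.3, 858.0 and 910.4 CPM with PBS and 758.6, 834.1 and 870.4 CPM with METH. Of 9 mesenchymal markers 2, VIM and LUM, were in the table and both rose. With 1 library left out, the call of VIM held in 4 of the 6 fits and that of LUM in each. These 2 genes summed to 272.7, 479.4 and 384.4 CPM with PBS and 724.2, 817.2 and 549.1 CPM with METH, nearly all of it VIM. None of the 5 glial, 4 epithelial and 3 immune markers was in the table. In bulk RNA, fewer cells of a kind and less RNA per cell cannot be told apart, and the part of these markers in the LINC levels was not tested.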

How the data were processed

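RNA of SH-SY5Y cells was sequenced on an Illumina HiSeq in 3 PBS and 3 METH libraries. The authors deposited 1 table of 4101 genes that they had marked as changed by DESeq2, with values in CPM for each library. The columns are headed FPKM, but the low values tested are whole multiples of 1 step per column, so there is no length correction. Over the 3427 to 3650 low values tested per library, 100.0% were within 0.1 reads of a whole number. The step of PBS 10 was found by a search, because its smallest value is 2 reads. Aligner, counting tool, genome build and use of strand are not given in the sources used here. The table also holds the authors' group means and their fold change, log2 fold change, p-value and adjusted p-value, which were not used.

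All genes were fitted by limma 3.58.1 (R 4.3.3) with a trend on log2(CPM + 0.1), METH against PBS, and p-values were adjusted by Benjamini-Hochberg over the table at 0.1. A fold change on this scale understates that of low genes. As alternatives the reads recovered from the CPM were tested by edgeR 4.0.16 (13 LINC genes higher, 22 lower; 2730 of the table) and DESeq2 1.42.0. Other alternatives were pseudocounts of 0.01 and 1, a filter on genes whose mean reached 1 CPM in either group, limma without a trend, scaling by median ratio, a threshold of 0.05, adjustment over 20000 genes, and leaving out each library. The code was tested on simulated data. PBS libraries keep the numbers 10 to 12 of their columns, which do not match the labels' 1 to 3.

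Named genes are LINC01105; the 6 largest changes in each direction among those past the threshold, without overlap and with a group mean reaching 0.5 CPM; the 6 highest means; those past 0.1 over 20000 genes; and their neighbours within 100 kb. Other genes were named after their values were seen. Some genes of the marker list are not reported here. Members and lists were chosen with earlier results of these data known. GENCODE 29 matched 4093 of the 4101 identifiers. RefSeq symbols and promoters (GRCh38.p14) were matched by symbol or gene identifier in Python 3.11.15, and motifs were searched on both strands.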

Additional observations from a re-analysis of the deposited data

How the results depend on the processing

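Adjusted over 20000 genes, 1 LINC gene was higher and 5 were lower, 410 genes of the table passed, and LINC01105 (log2 change -1.27) had a limma adjusted p of 0.152. This follows from the larger number of tests. At a threshold of 0.05, 9 LINC genes were higher, 13 were lower and 1479 of the table passed. Leaving out 1 library gave 5 to 14 higher and 11 to 22 lower LINC genes, 975 to 2919 genes of the table, and a log2 change of LINC01105 between -1.51 and -1.11. That change was -0.46 with a pseudocount of 1 and -1.58 with one of 0.01. With 1 library left out the log2 change of LINC00680 lay between -0.98 and 0.92, and by edgeR and DESeq2 on all libraries it was 1.15. It turned below 0 without METH 1 (-0.98) and without PBS 11 (-0.0045), and the cause was not tested beyond the value of METH 1 itself. DESeq2 gave no adjusted p for this gene. Pseudocounts, the filter on low values (38 LINC genes left), limma without a trend, scaling, edgeR and DESeq2 kept 12 to 13 LINC genes higher. The number of lower LINC genes lay between 14 and 22. Under the same settings, the genes passing in the whole table numbered from 2573 (of 3763, with the filter) to 2928 (of 4101, with scaling). The main fit gave 2833. Among the other named genes, LINC00888 was lost without a trend and by DESeq2, and the pairs of neighbours with the same sign numbered 26 to 28. LINC genes under 1 CPM rest on as few as 2 reads in a library, which limits the precision of their changes. No paired analysis was possible because the PBS columns carry the numbers 10 to 12 and the labels 1 to 3.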
